A study of Mus musculus with 16 samples.

Results

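Kallikrein-related peptidases are secreted serine proteases, and Spink5 encodes LEKTI, the inhibitor that holds several of them in check in the epidermis. The set described here was named by symbol and holds 9 proteases (Klk5, Klk6, Klk7, Klk8, Klk10, Klk11, Klk12, Klk13 and Klk14) and Spink5. These are 10 of the 23930 transcript targets in the count files. All 10 passed the filter on low counts that left 13633 targets for testing. Averaged over mice with and without LysM-Cre, all 9 kallikreins had fitted differences above 0 for Krt14-Cre. Klk12 and Klk13 passed the test for that average, 2 of 10 genes against 0.778% of all tested targets called higher. Against Control, no gene of the set was called in any knockout group, where 0% to 0.0293% of targets were. The Klk12 call was kept in each of the 16 fits that left out a mouse, and the Klk13 call in 5. Neither was kept with a score of suprabasal genes as a covariate, a fit added after the values were seen that called 1 of 13633 targets. Both were kept with a score of hair genes as a covariate, where 7 of the set and 189 of 13633 targets were called. Spink5 had similar means in all 4 groups.

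In the outermost epidermis, cornified cells are held together by corneodesmosomes, and shedding requires that these junctions are cut. KLK5 can activate itself and other kallikreins, and KLK7 and KLK14 act with it on corneodesmosomal proteins such as corneodesmosin and desmoglein 1. LEKTI is released by granular layer keratinocytes and blocks KLK5, KLK7 and KLK14. Loss of SPINK5 in people causes Netherton syndrome, with excess protease activity and a weak skin barrier.

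Whole skin of 12-week mice was profiled, 4 mice in each of 4 groups. All mice, controls included, carried Zc3h12a with loxP sites on both alleles (Zc3h12a loxP/loxP). Zc3h12a encodes MCPIP1, an RNase that degrades inflammatory mRNAs. Control mice carried no Cre, EKO mice carried Krt14Cre, MKO mice carried LysMCre, and EMdKO mice carried both. The Krt14 promoter drives Cre in basal keratinocytes, so their progeny in epidermis, hair follicle and sebaceous gland inherit the deletion, whereas LysM-Cre acts in macrophages and neutrophils. No mice with Cre on an unfloxed background were analysed here. Nothing in the labels says how the skin pieces were placed or whether mice shared litters.

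Libraries held 6962474 to 12086327 counts on targets. Controls averaged 24.7 ± 4.99 CPM of Zc3h12a (counts scaled to an equal library total), EKO mice 8.64 ± 2.10, MKO mice 26.5 ± 7.55 and EMdKO mice 5.32 ± 0.617 (SD, n = 4 each). The difference from Control on the log2 CPM scale was -1.50 in EKO and -2.15 in EMdKO, each with p = 0.0286 in an exact two-sided permutation test, the smallest p that 4 against 4 mice allow. It was 0.08 in MKO skin (p = 0.771, same exact test). The amplicon's place relative to the loxP sites is not given in the sources used here. Marker levels varied between mice within groups. The summed CPM of 23 hair shaft and inner root sheath genes ran from 522 to 46010 in Control skin, 414 to 9107 in EKO, 249 to 1116 in MKO and 218 to 9406 in EMdKO. The mean log2 CPM of 16 tested suprabasal and granular layer genes, called the suprabasal score below, was 6.90 to 7.36 in controls. EKO mice ranged from 6.63 to 8.59, MKO mice from 6.36 to 7.20 and EMdKO mice from 7.11 to 8.12. EKO mouse 1 held the lowest EKO value of that score, and the other EKO mice held 8.38 to 8.59.

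The 9 kallikrein genes lie in a cluster on mouse chromosome 7, from the start of Klk14 at position 43680880 to the end of Klk5 at 43851181 (GRCm38.p6, RefSeq). Along the chromosome their order is Klk14, Klk13, Klk12, Klk11, Klk10, Klk8, Klk7, Klk6 and Klk5. The sequences below are the RefSeq promoters, 250 bases before to 50 bases after the start on the plus strand, of Klk13 (chr7:43712317-43712616), Klk12 (chr7:43768850-43769149) and Klk8 (chr7:43797327-43797626). Klk12 and Klk13 are shown because they passed the test for the mean effect of Krt14-Cre. Klk8 is shown as the gene of the set with the smallest p for EKO against Control (edgeR), where it was not called. Capitals mark a GGGCGG match.
Klk13: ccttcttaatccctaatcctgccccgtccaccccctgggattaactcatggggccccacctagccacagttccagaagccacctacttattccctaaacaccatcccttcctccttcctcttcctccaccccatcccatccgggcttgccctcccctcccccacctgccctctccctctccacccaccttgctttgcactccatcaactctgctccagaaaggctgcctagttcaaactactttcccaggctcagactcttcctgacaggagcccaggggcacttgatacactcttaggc
Klk12: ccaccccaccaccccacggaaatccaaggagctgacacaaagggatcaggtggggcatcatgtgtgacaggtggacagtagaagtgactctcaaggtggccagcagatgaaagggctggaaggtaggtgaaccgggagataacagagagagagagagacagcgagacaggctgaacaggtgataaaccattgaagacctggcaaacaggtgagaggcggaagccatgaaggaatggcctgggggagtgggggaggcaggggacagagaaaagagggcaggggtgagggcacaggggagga
Klk8: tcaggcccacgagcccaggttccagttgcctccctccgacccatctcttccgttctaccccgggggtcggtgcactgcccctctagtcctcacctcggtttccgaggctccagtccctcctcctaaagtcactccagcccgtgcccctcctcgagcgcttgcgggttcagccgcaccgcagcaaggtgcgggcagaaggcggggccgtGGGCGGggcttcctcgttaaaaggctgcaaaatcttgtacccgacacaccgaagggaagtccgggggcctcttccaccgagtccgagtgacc
The 9 kallikreins had 11 promoters in the RefSeq table, and 3 motifs were searched on both strands. TATAAA, the core of a TATA box, was in 0 of the 11, against 13.6% of all 32851 promoters of that length. TGANTCA, the core AP-1 sequence, was in 0 of the 11, against 7.81%. GGGCGG, the core of a GC box, was in 4 of the 11 (both Klk6 promoters, Klk7 and Klk8), against 35.7%. In the Klk8 promoter the match lay at -42 from the start.

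Changes were tested with edgeR's quasi-likelihood test on counts, and p-values were adjusted by Benjamini-Hochberg over all 13633 targets, with a call at an adjusted p under 0.05. The mean effect of Krt14-Cre compares EKO and EMdKO with Control and MKO, and that of LysM-Cre compares MKO and EMdKO with Control and EKO. All of these contrasts draw on the same 16 libraries, so they share samples. For the mean effect of Krt14-Cre, 2 of the 10 genes were called, both higher, against a background of 0.778% of targets called higher. All 10 fitted log2 changes were above 0, with a median of 1.19 against -0.02 over all tested targets. Between the single knockouts, 5 of 10 were higher in EKO than in MKO skin, against a background of 0.653%. In whole skin, fewer cells of a type and less RNA per cell cannot be told apart.

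Against Control, no gene of the set was called in any knockout group. For EKO the background was 0% of targets, since edgeR called 0 of 13633, while 940 had an unadjusted p under 0.05; DESeq2 called Klk8 higher, against 0.359% of its targets. Klk8, Klk11, Klk12 and Klk13 were the 4 of 10 with an unadjusted p under 0.05 there, against 6.9% of targets. For MKO the background was 0.0293%, and DESeq2 called Klk6 and Klk13 lower, against 0.633% of its targets. Klk6, Klk10, Klk12 and Klk13 had an unadjusted p under 0.05, 4 of 10 against 9.58% of targets, and all 9 kallikreins had log2 values below 0, with a median of -1.37. For EMdKO the background was 0.0293%, no kallikrein was called by DESeq2, and Klk11 and Klk12 had an unadjusted p under 0.05, 2 of 10 against 8.16%.

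For the mean effect of LysM-Cre no gene of the set was called, against a background of 0.044%, and DESeq2 called 3 lower, Klk6, Klk8 and Klk13, against 1.14% of its targets. All 9 kallikreins had log2 values below 0 there, and 7 of the set had an unadjusted p under 0.05, against 13.1% of targets. Other lists moved in the same contrast: all 23 hair genes were below 0 with a median of -3.66, both stress keratins with a median of -1.77, and all 8 skeletal muscle genes were above 0 with a median of 0.25, none of them called. With the hair score (mean log2 CPM of the hair list) as a covariate, the mean effect of LysM-Cre went from -2.57 to -1.43 for Klk13 and from -2.16 to -0.92 for Klk6, while Klk8 went from -0.91 to -1.21.

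**Figure D1:**
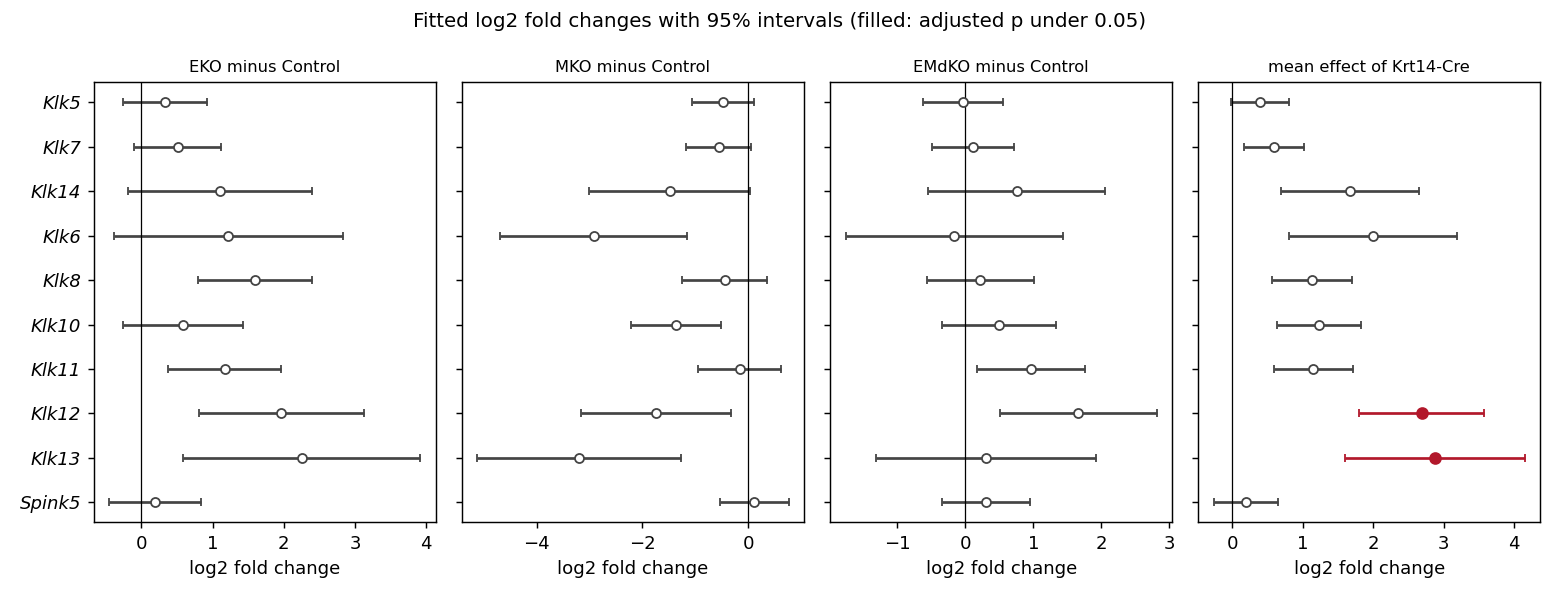
Log2 fold change of each gene with its 95% interval, for each knockout group against Control and for the mean effect of Krt14-Cre; filled red points passed an adjusted p of 0.05 and the x axes differ between panels. Klk12 and Klk13 are the red points, at 2.69 and 2.87, and Spink5 lies near 0 in every panel.

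Klk12, a kallikrein whose role in epidermis is not well defined, had the smallest p of the set. It was read at 11 to 17 counts per library in Control skin, or 1.36, 1.73, 1.59 and 2.00 CPM in mice 1 to 4. EKO mice held 0.516, 9.60, 10.4 and 5.65 CPM, MKO mice 0.314, 0.506, 0.596 and 0.502, and EMdKO mice 5.55, 5.69, 6.28 and 3.67. All 4 EMdKO mice lay above all Control mice, and all 4 MKO mice lay below them on 2 to 5 counts each. EKO mouse 1 lay below the Control range while the other EKO mice lay above it. The mean effect of Krt14-Cre was 2.69 ± 0.42 on the log2 scale (SE, 95% interval 1.80 to 3.58, adjusted p = 0.0074, edgeR). Klk12 was called in each of the 16 fits that left out a mouse. It was also higher in EKO than in MKO skin, by 3.71 ± 0.64 (adjusted p = 0.0156, edgeR), a call kept in 11 of those 16 fits.

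Klk13, in people a kallikrein of stratified epithelia, ranged furthest between mice, 241-fold from the lowest to the highest CPM. Control mice held 27.3, 22.2, 5.33 and 2.62 CPM and EKO mice 16.4, 63.7, 151 and 40.6. MKO mice held 0.627, 0.632, 1.55 and 3.26, on 4 to 26 counts, and EMdKO mice 14.7, 5.82, 41.2 and 8.51. Every EKO and EMdKO mouse lay above every MKO mouse, and both ranges overlapped Control. The mean effect of Krt14-Cre was 2.87 ± 0.60 (adjusted p = 0.0329, edgeR), and the call was kept in 5 of 16 fits that left out a mouse. Against Control, Klk13 stood at 2.25 ± 0.79 in EKO, -3.20 ± 0.91 in MKO and 0.30 ± 0.76 in EMdKO skin. The adjusted p was 0.602, 0.331 and 0.965 (edgeR). EKO exceeded MKO skin by 5.45 ± 0.96 (adjusted p = 0.0182, edgeR), a call kept in 11 of 16. For the mean effect of LysM-Cre, Klk13 had a log2 value of -2.57 with an adjusted p of 0.124 (edgeR).

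Klk6, an epidermal kallikrein also known from the nervous system, was likewise highest on average in EKO and lowest in MKO skin. Its CPM were 82.0, 62.1, 17.9 and 6.75 in Control mice and 25.1, 128, 204 and 36.1 in EKO mice. MKO mice held 2.51, 8.59, 6.32 and 4.52, and EMdKO mice 35.6, 12.6, 83.4 and 18.4. The MKO range lay below the EKO and EMdKO ranges and overlapped Control through Control mouse 4. EKO exceeded MKO skin by 4.15 ± 0.87 (adjusted p = 0.0389, edgeR), a call kept in 7 of 16 fits that left out a mouse and lost with the hair score as a covariate (adjusted p = 0.0635). For Krt14-Cre its mean effect was 1.99 ± 0.56 (adjusted p = 0.139, edgeR). With the hair score as a covariate that effect was 1.99 ± 0.42 and was called (adjusted p = 0.0232, edgeR), among 189 of 13633 targets. In Control skin the mice with the higher Klk6 and Klk13 were mice 1 and 2, whose hair scores were 9.26 and 6.80 against 5.11 and 0.08 in mice 3 and 4. In EKO skin mouse 1 had the highest hair score, 6.92, and the lowest Klk6 and Klk13. With the hair score as a covariate, Klk13 in EKO against Control was 3.07 ± 0.55 (adjusted p = 0.0959, edgeR), against 2.25 ± 0.79 without it. MKO against Control also moved upward, which made it smaller in size. It went from -3.20 to -1.35 for Klk13 and from -2.93 to -0.91 for Klk6 (adjusted p = 0.986 for both with the covariate, edgeR).

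**Figure D2:**
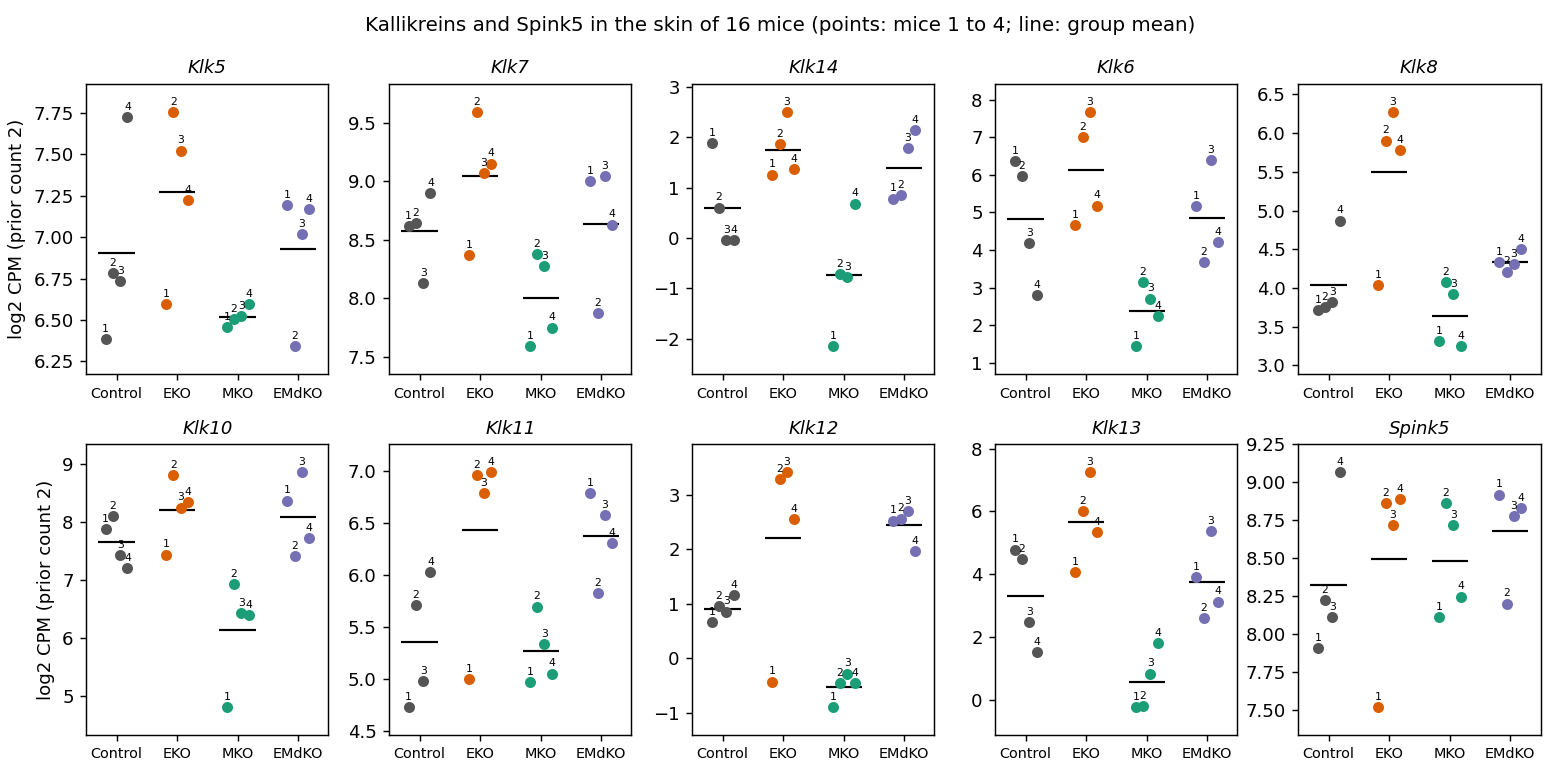
Log2 CPM (prior count 2) of each of the 10 genes in every mouse, by group, with a line at each group mean. For Klk12 the EMdKO points lie above every Control point and the MKO points below, and for Spink5 all 4 groups overlap.

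Klk8, known as neuropsin and linked to keratinocyte proliferation and shedding in mice, was high in 3 of 4 EKO mice. Control mice held 12.9, 13.2, 13.8 and 29.0 CPM and EKO mice 16.2, 59.7, 77.3 and 54.7. MKO mice held 9.72, 16.7, 14.9 and 9.29, and EMdKO mice 20.0, 18.3, 19.6 and 22.5. EMdKO skin was even, with a ratio of highest to lowest of 1.23, and lay inside the Control range. EKO exceeded MKO skin by 2.03 ± 0.38 (adjusted p = 0.0276, edgeR), a call kept in 9 of 16 fits. Against EKO, EMdKO skin had a log2 value of -1.37 ± 0.37 with an adjusted p of 0.514 (edgeR), in a comparison where 0.0147% of targets were called and no gene of the set was. All 9 kallikreins had log2 values below 0 there, with a median of -0.37, among them Klk13 at -1.95 and Klk6 at -1.39. The interaction of the 2 Cre lines had a log2 value of -0.93 ± 0.53 for Klk8, and no target was called for it (adjusted p = 0.999, edgeR), while 465 had an unadjusted p under 0.05, or 3.41%, Klk10 being the 1 of the set.

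Klk10 and Klk11 encode kallikreins that, in people, are expressed in the upper epidermis. Klk10 CPM were 235, 275, 172 and 147 in Control mice and 173, 446, 304 and 323 in EKO mice. MKO mice held 28.1, 122, 86.3 and 84.3, and EMdKO mice 330, 170, 462 and 211. All MKO values lay below those of every other mouse. EKO exceeded MKO skin by 1.96 ± 0.41 (adjusted p = 0.0386, edgeR), a call kept in 6 of 16 fits and lost with the hair score as a covariate (adjusted p = 0.0648). MKO against Control was -1.37 ± 0.40 (adjusted p = 0.331, edgeR). Klk11 CPM were 26.4, 52.1, 31.3 and 65.0 in Control mice and 31.8, 125, 110 and 127 in EKO mice. MKO mice held 31.2, 51.7, 40.3 and 33.0, and EMdKO mice 111, 56.5, 95.2 and 79.2. All EMdKO mice lay above all MKO mice, and the mean effect of Krt14-Cre was 1.15 ± 0.26 (adjusted p = 0.0515, edgeR). Klk10 stood at 1.23 ± 0.28 (adjusted p = 0.0519) and Klk8 at 1.13 ± 0.27 (adjusted p = 0.0591) in that contrast, in the same edgeR fit. With the hair score as a covariate, Klk10, Klk11 and Klk8 were called in that contrast (adjusted p = 0.0272, 0.0222 and 0.0174, edgeR), among 189 of 13633 targets.

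Groups that did not overlap give a count free of the model. MKO lay wholly below Control for Klk10 and Klk12, 2 of 10 genes, against a background of 1.71% of targets. EMdKO lay wholly above Control for Klk12, 1 of 10, against 2.23%, and no gene separated EKO from Control, against 2.26%. EKO lay wholly above MKO for Klk6, Klk10, Klk13 and Klk14, 4 of 10 against 5.2%. EMdKO lay wholly above MKO for 7 of 10, namely Klk6, Klk8, Klk10, Klk11, Klk12, Klk13 and Klk14, against 3.71%, though edgeR called none of the set there and 0.00734% of targets. Of those 7, Klk12 had a log2 difference of 3.41 ± 0.64 (adjusted p = 0.0962, edgeR). No gene of the set, Klk12 and Klk13 included, separated all carriers of Krt14-Cre from all non-carriers, and none did so for LysM-Cre. The share of all targets that did is not given here.

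Of the shedding cascade, Klk5 and Klk7 varied least among the kallikreins, at 0.459 and 0.539 root mean square log2 deviation, and Klk14 varied more, at 1.21. Klk5, the initiator, had CPM of 83.2, 110, 106 and 211 in Control mice and 96.4, 216, 183 and 149 in EKO mice. It had 87.6, 90.6, 91.8 and 96.5 in MKO mice and 146, 80.9, 129 and 144 in EMdKO mice. MKO mice were close together, at 91.6 ± 3.69 CPM (SD, n = 4), within the Control range. Klk5 had a mean effect of Krt14-Cre of 0.39 (95% interval -0.03 to 0.81, adjusted p = 0.493, edgeR). Klk7, the chymotrypsin-like corneodesmosome protease, averaged 387 ± 81.1 CPM in the controls, 552 ± 181 in EKO mice, 263 ± 68.7 in MKO mice and 418 ± 136 in EMdKO mice (SD, n = 4 each), and every pair of groups overlapped. Its mean effect of Krt14-Cre was 0.59 (95% interval 0.16 to 1.02, adjusted p = 0.252, edgeR). Klk14, a trypsin-like partner of KLK5, was read at low depth, at 0 to 45 counts per library. Control mice held 0.747 to 3.47 CPM, EKO mice 2.17 to 5.46, MKO mice 0 to 1.38 and EMdKO mice 1.49 to 4.20. Its mean effect of Krt14-Cre was 1.67 ± 0.46 (adjusted p = 0.126, edgeR). MKO mouse 1 had 0 Klk14 counts, which allows a level of up to 0.470 CPM at 95% confidence, for counting error alone.

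Spink5, the inhibitor, differed least between groups. Its gene lies apart from the cluster, on chromosome 18 from 43959545 to 44022487 (GRCm38.p6, RefSeq). Control mice held 239, 299, 276 and 535 CPM and EKO mice 183, 465, 421 and 473. MKO mice held 276, 465, 420 and 304, and EMdKO mice 484, 294, 439 and 455. All 4 groups overlapped, and the lowest and highest values were in EKO mouse 1 and Control mouse 4. The mean effect of Krt14-Cre was 0.19 with a 95% interval of -0.26 to 0.65 (adjusted p = 0.81, edgeR), and EKO against Control was 0.19 with an interval of -0.45 to 0.84. These intervals leave room for changes of either sign.

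**Figure D3:**
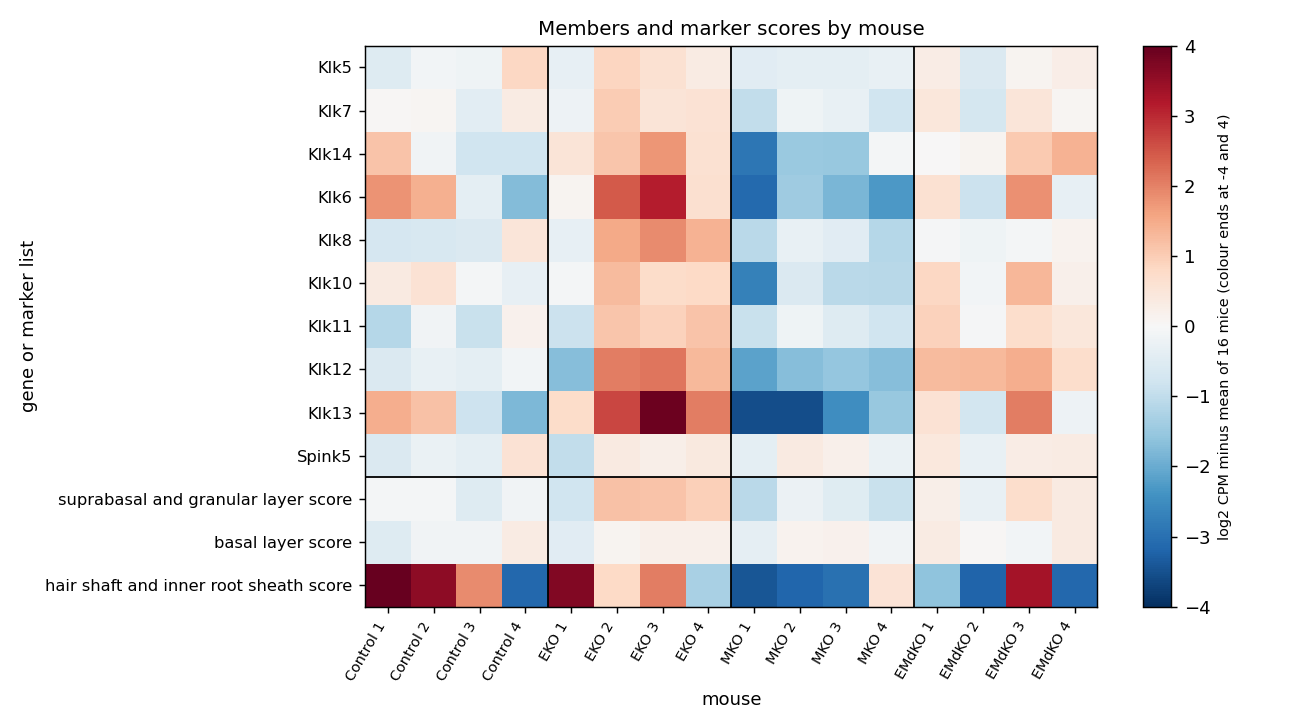
Log2 CPM of the 10 genes and mean log2 CPM of the suprabasal, basal and hair lists in all 16 mice, each row centred on its own mean. Among the 10 genes, Klk13, Klk6 and Klk12 varied most, at 2.14, 1.76 and 1.43 root mean square log2 deviation, and Spink5 least at 0.436; the hair score, from -0.22 to 9.26, ranged further than any of them.

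Dividing each kallikrein by Spink5 within a mouse cancels only a factor that scales both genes alike, and whether they share one was not tested. Amplicons differ in yield, so a ratio compares mice and not the abundance of a protease with that of its inhibitor. Klk8 over Spink5 was 0.0506 ± 0.00458 in Control and 0.129 ± 0.0400 in EKO skin (SD, n = 4 each). It was 0.0343 ± 0.00247 in MKO and 0.0494 ± 0.00921 in EMdKO skin. All 4 EKO mice, from 0.0884 to 0.183, lay above every other mouse, EKO mouse 1 included. The Klk8 level of EKO mouse 1, 16.2 CPM, was itself inside the Control range of 12.9 to 29.0. Its Spink5, 183 CPM, was the lowest of all mice, so its high ratio rests on the divisor. Of all other targets, 0.565% lay wholly higher in EKO than in Control when divided by Spink5, and Klk8 was the 1 of 9 kallikreins to do so.

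In MKO skin, Klk7 over Spink5 was 0.715 ± 0.0155, within 0.699 to 0.736, and lay below every other mouse. It was 1.22 ± 0.338 in Control, 1.49 ± 0.292 in EKO and 0.983 ± 0.184 in EMdKO skin (SD, n = 4 each). MKO lay wholly below Control for 4 of 9 kallikreins so divided, namely Klk5, Klk7, Klk8 and Klk12, against a background of 0.447%. The summed CPM of the 9 over Spink5 was 1.35 ± 0.0865 in MKO against 2.70 ± 0.834 in Control, and every MKO mouse was below every Control mouse. EMdKO lay wholly below Control for Klk5, 1 of 9, against 1.15%, and wholly above for Klk12, 1 of 9, against 0.506%. These divisions were made with no test.

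**Figure D4:**
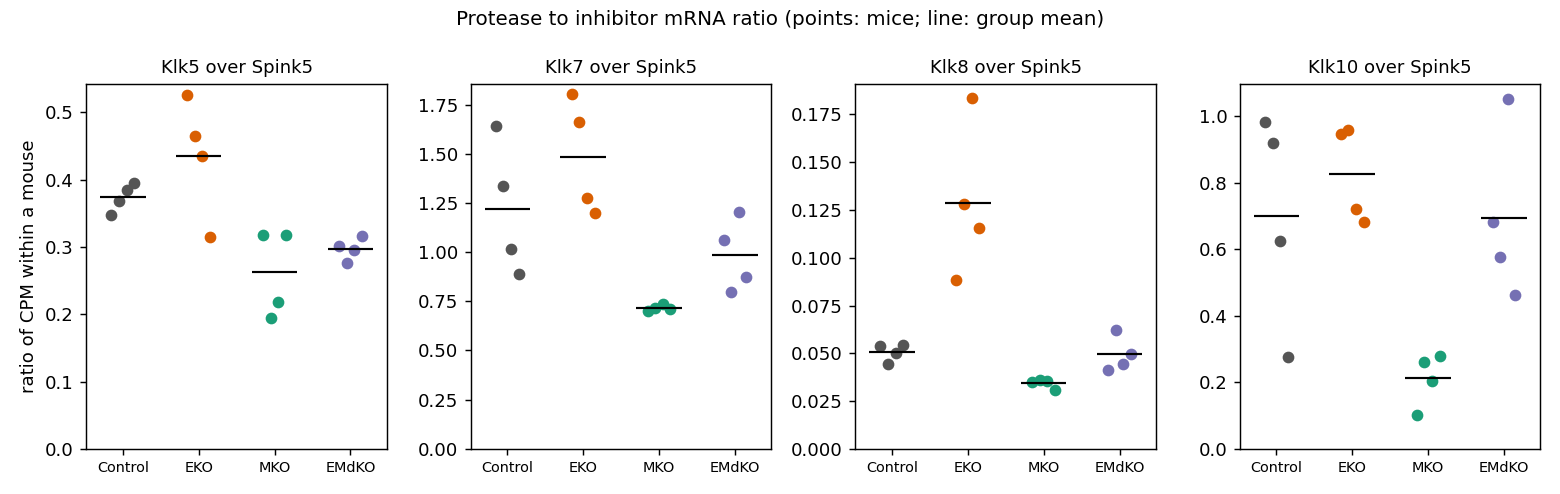
Ratio of the CPM of Klk5, Klk7, Klk8 and Klk10 to that of Spink5 in each mouse, by group, on axes from 0. The Klk8 panel has the EKO mice above all others, from 0.0884 to 0.183, and the Klk7 panel has the MKO mice below all others, from 0.699 to 0.736.

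EKO mouse 1 stood apart from the other EKO mice. It held the lowest EKO value for all 10 genes, so leaving it out raises their EKO means by construction. The fit without it shows the weight of 1 mouse and gives no independent support for a change. Without EKO mouse 1, EKO exceeded Control for Klk8 by 1.89 ± 0.28 (adjusted p = 0.0028) and Klk11 by 1.47 ± 0.29 (adjusted p = 0.0216), in edgeR. Klk12 then exceeded Control by 2.35 ± 0.28 (adjusted p = 0.000629, edgeR), where 0.821% of all targets were called higher. Klk12 was then also called higher in EMdKO than in Control, at 1.66 ± 0.27 (adjusted p = 0.0137, edgeR), against 0.262% of targets. The mean effect of Krt14-Cre then called 6 of 10, with Klk6, Klk8, Klk10 and Klk11 joining Klk12 and Klk13, against 2.11% of targets called higher. EKO against MKO then called 8 of 10, against 2.61%. At the other end, MKO mouse 1 held the lowest value of all mice for Klk6, Klk7, Klk10, Klk12, Klk13 and Klk14. It also had the highest skeletal muscle score, 13.4 as mean log2 CPM. EKO against MKO called 0 of the set without EKO mouse 2, EKO mouse 3, or any of MKO mice 1 to 3. Those fits called 8 to 22 of all targets. EKO against MKO called 2 of the set without EKO mouse 4 or MKO mouse 4 (36 and 60 of all targets). It called 3 without EMdKO mouse 1 or EMdKO mouse 4 (40 and 63 of all targets). For the mean effect of Krt14-Cre, Klk12 was the 1 call left without any of EKO mice 2 to 4, MKO mice 1 to 3, EMdKO mice 1 and 3, or Control mice 2 and 3. In these fits 40 to 80 of all targets were called. The part of tissue content in these differences was not tested, apart from the covariates given here.

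For the mean effect of Krt14-Cre, the suprabasal list went the same way as the kallikreins. All 16 tested genes of that list had values above 0 there, with a median of 0.67, and Krt1, Rptn and Hrnr were called higher. In MKO against Control the 2 lists differed more. The suprabasal list had 7 of 16 genes above 0 and a median of -0.20, while all 9 kallikreins were below 0 with a median of -1.37. In a fit with the score as a covariate, added after these values were seen, 1 of 13633 targets was called for the mean effect of Krt14-Cre and none of the set was. Klk12 then stood at 1.28 ± 0.42 (adjusted p = 0.996) and Klk13 at 1.37 ± 0.60 (adjusted p = 0.996), with an unadjusted p of 0.0083 and 0.0364, in edgeR. EKO against MKO then called none of the set, and Klk13 stood at 3.24 ± 0.88 (adjusted p = 0.577, edgeR). Spink5 turned to -0.45 ± 0.20 for the mean effect of Krt14-Cre (adjusted p = 0.996, edgeR). The basal list had 7 of 11 tested genes above 0 and none called.

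Other genes of the protease network were read from lists. Of 17 other tissue kallikreins, 15 were in the files and 2 were tested, and neither was called: Klk9 had a mean effect of Krt14-Cre of 0.82 (adjusted p = 0.395) and Klk1 of -1.30 (adjusted p = 0.376), in edgeR. Of 17 tested activating and other epidermal proteases 0 were called, and the nearest was Plau, urokinase, at -0.73 (adjusted p = 0.0513), followed by Asprv1, which processes filaggrin, at 1.08 (adjusted p = 0.117). Among 18 tested protease inhibitors of skin 2 were called, both higher. These were Cst6, cystatin M, at 1.32 ± 0.28 (adjusted p = 0.0329, edgeR), and Serpinb3a at 7.06 ± 1.01 (adjusted p = 0.00583, edgeR). Serpinb3a was 0 to 0.280 CPM in Control mice, so its fitted fold is rough. Cst6 averaged 422 ± 50.2 CPM in controls, 787 ± 450 in EKO mice, 204 ± 89.1 in MKO mice and 680 ± 151 in EMdKO mice (SD, n = 4 each).

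Among substrates, 0 of 14 tested desmosome and corneodesmosome genes were called, and Dsc1 stood at 0.45 (adjusted p = 0.454) and Pkp1 at 0.36 (adjusted p = 0.496, edgeR). Of 5 other substrates 1 was called, Flg, the filaggrin gene, at 1.68 ± 0.36 (adjusted p = 0.035, edgeR). Of 10 proteinase-activated receptors and their outputs 1 was called, the cytokine Il1a, at 1.87 ± 0.35 (adjusted p = 0.0204, edgeR). Il1a was 6.56 ± 0.718 CPM in controls, 7.41 ± 3.17 in MKO and 24.9 ± 7.03 in EMdKO skin (SD, n = 4 each), and EKO mice held 3.51 to 40.6. No hair list gene of 23 was called, and 3 of 13 tested sebaceous genes were, namely Awat1, Cidea and Elovl3, all higher. Krt7 was the 1 of 3 tested gland genes called, also higher. None of 2 stress keratins, 7 melanocyte, 7 macrophage, 5 neutrophil, 6 T cell, 4 mast cell, 8 skeletal muscle, 8 adipocyte or 6 fibroblast genes was called for the mean effect of Krt14-Cre. Between EKO and MKO skin, Krt16, S100a8 and S100a9 were higher in EKO (adjusted p = 0.0429, 0.0389 and 0.0305, edgeR); the S100 genes are made by neutrophils and by stressed keratinocytes.

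The genes most like Spink5 and Klk12 were found by the root mean square difference of centred log2 CPM over 16 libraries. For Spink5 these were Dhcr7, Pof1b, Arhgef5, Map2 and Pak3, at 0.126, 0.152, 0.166, 0.169 and 0.176, and the nearest kallikrein was Klk5 at 0.358. For Klk12 these were Abhd12b, Aadacl3, Degs2, Abcc3 and Slc37a2, at 0.509, 0.524, 0.544, 0.562 and 0.565, and the nearest member of the set was Klk10 at 0.860. These distances are smaller for genes that vary little, and Spink5 and Klk12 themselves deviated by 0.436 and 1.43.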

How the data were processed

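Total RNA of snap-frozen skin from 16 mice was made into libraries with an amplicon-based mouse transcriptome kit (Ion AmpliSeq), as the labels' protocols state. The authors deposited raw read counts per RefSeq transcript target, with HTSeq 0.6.0 and DESeq2 1.18.1 named in the submitters' processing notes; no genome build is given in the sources used here. Every gene was read through its amplicon, so levels were compared between mice and not between genes. The 5 summary lines, 3.11% to 5.25% of counts, stayed out of totals and tests. Symbols came from RefSeq GRCm38.p6 for 22452 targets and from a second table for 110, and 1368 had none.

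Counts were tested with edgeR 4.0.16 in R 4.3.3 (limma 3.58.1): TMM scaling, filterByExpr by group, 1 mean per group over all 16 libraries, 9 contrasts. SE is the log2 change divided by the root of F, an approximation, and log2 CPM used a prior count of 2. DESeq2 1.42.0 was an alternative, and the edgeR script was tested on simulated data. The biological coefficient of variation was 0.31. Nothing in the labels says that mice share a litter. The edgeR p-values set group differences against the spread between these mice, which is estimated in part from all tested targets. No pair of libraries agreed within sampling noise (smallest chi-square per degree of freedom 14.4).

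The rule for named genes took all 10 genes of the set, whose values are given where a comparison turns on them. From each other list the genes called in any contrast were eligible, or else the 2 with the smallest p for the mean effect of Krt14-Cre. The genes and lists were chosen with earlier results of these data known. Listed genes with no matching symbol were not analysed here.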

Additional observations from a re-analysis of the deposited data

Results flagged for a closer look

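Within groups of 4 mice, the gap from the highest or lowest mouse to its neighbour on the log2 CPM scale was set against Dixon's 95% critical value for 4 mice, over 40 groups (10 genes in 4 groups). Chance passes about 1 in 20 groups, and 3 groups passed. Klk8 in Control mouse 4 was high at 28.99 CPM, a gap of 0.913 of the range. Klk11 in EKO mouse 1 was low at 31.79 CPM, with a gap of 0.898. Spink5 in EKO mouse 1 was low at 183.3 CPM, with a gap of 0.877. The suprabasal score of EKO mouse 1 was 6.63 against 8.38 to 8.59 in the other EKO mice, and its part in these values was not tested.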

How the results depend on the processing

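Scaling by relative log expression or by library totals, and a stricter filter, left the number of the set called in every contrast within 1.5 times. DESeq2 called 1 for EKO against Control, 2 for MKO against Control, 8 for EKO against MKO, 3 for EMdKO against MKO, 7 for the mean effect of Krt14-Cre and 3 for that of LysM-Cre; over all targets it called 54, 111, 617, 143, 314 and 253 in these contrasts, against 0, 4, 117, 1, 126 and 6 with edgeR. With no filter, EMdKO against MKO called 1 and the mean effect of Krt14-Cre 5, where 9 and 147 of 20563 targets were called. Fitting the compared groups alone gave 2 for EKO against MKO and 1 for EMdKO against MKO. Over all targets it called 102 of 13166 and 90 of 13126. The hair covariate gave 3 for EKO against MKO and 7 for the mean effect of Krt14-Cre, where 66 and 189 of 13633 targets were called. The suprabasal covariate, added after seeing the data, gave 0 for both, where 2 and 1 targets were called. Leaving out 1 mouse gave 0 to 3 calls of the set for EKO against Control (0 to 127 over all targets). It gave 0 to 1 for EMdKO against Control (2 to 40), 0 to 8 for EKO against MKO (8 to 510) and 0 to 2 for EMdKO against MKO (1 to 95). The mean effect of Krt14-Cre had 1 to 6 (40 to 356) and that of LysM-Cre 0 to 2 (4 to 25). The cause was not tested.

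The mouse numbers come from the labels, but same-numbered mice did not deviate together: over 24 pairs the correlation ran from -0.543 to 0.61, and 7 were over 0.1. With the mouse number as a replicate block, EKO against MKO called 3 (Klk8, Klk12 and Klk13), among 46 of 13633 targets. The mean effect of Krt14-Cre called 1 (Klk12) in that fit, among 103 targets. EMdKO against Control turned to 0.0321 for Klk5 and -0.0394 for Klk13.

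All 10 genes were followed through the settings in each contrast except EMdKO against EKO (Klk6, Klk8 and Klk13) and the interaction (Klk8 and Klk10). There 1700 values stayed on their side, 47 passed the threshold anew, 61 lost it and 43 changed sign, none of the last called. Over all 10 genes and 9 contrasts, 81 of 2218 values changed sign. Under the suprabasal covariate, EKO against Control turned to -0.101 for Klk5, -0.225 for Klk6, -0.0574 for Klk7, -0.109 for Klk10 and -0.468 for Spink5. MKO against Control turned to 0.26 for Klk11, EKO against MKO to -0.0397 for Klk11 and -0.877 for Spink5, and the mean effect of Krt14-Cre to -0.0517 for Klk5 and -0.447 for Spink5. EMdKO against MKO turned to -0.0029 for Klk5, -0.0928 for Klk8 and -0.426 for Spink5, and EMdKO against Control to -0.211 for Klk7, -0.166 for Klk8, -0.493 for Klk13 and -0.0178 for Spink5. The mean effect of LysM-Cre turned to 0.286 for Klk11. Under the hair covariate EMdKO against Control turned to 1.08 for Klk6 and -0.0271 for Klk8, and the mean effect of LysM-Cre to -0.121 for Spink5; with library totals Klk5 in EMdKO against Control was 0.0026. With 1 mouse left out, Klk11 in MKO against Control ran from -0.338 to 0.0972, above 0 without Control mouse 4. Spink5 in MKO against Control ran from -0.017 to 0.433, below 0 without MKO mouse 2 or Control mouse 1, and was -0.208 with the hair covariate. Spink5 in EKO against MKO ran from -0.0387 to 0.308, below 0 without EKO mouse 2, EKO mouse 4, MKO mouse 1 or MKO mouse 4. EMdKO against Control ran from -0.188 to 0.326 for Klk5, -0.916 to 0.387 for Klk6, -0.0216 to 0.308 for Klk7 and -0.55 to 0.832 for Klk13.

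The Zc3h12a difference, with 1 mouse left out, ran from -1.65 to -1.39 in EKO and from -2.26 to -2.05 in EMdKO, each with an exact permutation p of 0.0571, the smallest that 3 against 4 mice allow. In MKO it ran from -0.0708 to 0.271, below 0 without MKO mouse 2 or Control mouse 1. Klk12 and Klk14 were read at low counts, which limits their precision.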
